A study of Mus musculus with 46 samples.

Results

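The response of the mouse ovarian follicle to an ovulatory stimulus was examined at 4 h against 0 h within batch 2, the one of the study's 2 library sets that holds every 0 h follicle. The comparison used 12 of the series' 46 libraries, namely 9 follicles at 0 h (replicates 1 to 9) and 3 follicles at 4 h (replicates 11, 12 and 13), matched to the count table by their descriptions. All came from CD-1 mice, an outbred stock, and had grown for 8 days in alginate, 1 follicle to a well, with recombinant follicle-stimulating hormone (rFSH), before enzymatic removal from the gel. The treatment was 1.5 IU/ml human chorionic gonadotropin (hCG), 10 ng/ml epidermal growth factor (EGF), 10 mIU/ml rFSH and 10% fetal bovine serum, and the groups are 0 h and 4 h of it. No follicles kept for 4 h without hCG are named in the labels, so the agents, the change of medium and the elapsed time cannot be told apart. Follicles are not tied to animals in the labels, and p-values measure the spread between follicles.

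hCG acts on the luteinizing hormone receptor of theca and mural granulosa cells. Cyclic AMP then leads to release of EGF-like ligands, which carry the signal to the cumulus cells around the oocyte, where a hyaluronan matrix is built and meiosis resumes. Granulosa cells meanwhile leave their estrogen-making, dividing state and start to become the progesterone-making cells of the corpus luteum.

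Of 25147 genes in the table, 9423 were left out by rule, since none of the 6 libraries of batch 2 collected after hCG had a count for them, although 3332 of them had counts in batch 1. These genes took between 22.6% and 46.2% of the total count in the 0 h libraries. After their removal the libraries held 1264015 to 3202501 counts at 0 h, and 1724772, 1357085 and 1069107 in replicates 11, 12 and 13. On the first principal component of log2 CPM (counts scaled to library size), with 52.5% of the variance, the 4 h follicles lay at 94.3 to 117.8 and the 0 h follicles at -44.9 to -25.5. Replicate 3 of 0 h stood apart on the next component. Among markers of the follicle's cell types, the granulosa genes were plentiful at 0 h, with a summed level of 14033 to 45636 CPM that was mostly Inha, and theca and stroma genes summed to 789 to 3607 CPM. The 15 oocyte markers summed to only 15.2 to 122 CPM at 0 h and 29.8 to 42.0 CPM at 4 h, and Figla was at 0 in 10 of the 12 libraries. Endothelial, leukocyte and surface epithelial markers summed to at most 179 CPM in any library.

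At 4 h, 3666 of 9735 genes tested differed from 0 h by edgeR's quasi-likelihood test at an adjusted p under 0.05, which is 37.7%. Of these, 1432 were higher (14.7% of those tested) and 2234 lower (22.9%), and 3085 had changed at least 2-fold. The median change over all genes tested was -0.15 on the log2 scale. All 3 follicles at 4 h lay above all 9 at 0 h for 1099 genes (11.3%) and below them for 1533 (15.7%). Taken singly, replicates 11, 12 and 13 were above the whole 0 h range for 23.2%, 21.2% and 19.8% of the genes tested and below it for 29.8%, 25.8% and 29.2%. At an unadjusted p under 0.05, 47.1% of the genes differed. Rises made up 39.1% of the calls with edgeR on counts and 63.1% with limma on log2(TPM + 1), where the median over all genes was 0.25. These fits differ in unit, test and genes kept, and the TPM were not rescaled after the genes left out by rule were dropped. The part of each difference was not tested. In whole follicles, fewer cells of a type and less RNA per cell cannot be told apart.

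Several genes of ovulation were among the largest rises. Ptgs2, the inducible cyclooxygenase of prostaglandin synthesis (chr1, GRCm38), had 0 to 1.04 CPM at 0 h, with a median of 0, and 4316, 107 and 87.8 CPM in replicates 11, 12 and 13. Each 4 h follicle was far above every 0 h follicle, and replicate 11 was far above the other two. Ptgs2 passed the filter on low counts only through the 4 h follicles, so an overlap was not open to it. The fitted rise was 12.25 ± 1.04 on the log2 scale (SE, adjusted p = 3.1e-07). Sult1e1, the estrogen sulfotransferase, went from at most 2.40 CPM to 5499, 206 and 279 CPM, a log2 rise of 11.59 ± 0.91. Serpinb2, which blocks plasminogen activation, was without a count in the 0 h group (0 of 9 follicles) and reached 86.5, 92.4 and 445 CPM at 4 h, which is at least 1278-fold higher when 3 counts are allowed for the whole 0 h group. In this gene replicate 13, not replicate 11, was highest.

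EGF-like ligands carried some of the steepest changes. Btc (betacellulin) had 0 to 2.36 CPM at 0 h and 1761, 217 and 233 CPM in replicates 11, 12 and 13, a log2 rise of 10.00 ± 0.62 (adjusted p = 1.0e-08). Ereg (epiregulin) had at most 1.34 CPM at 0 h and 646, 31.6 and 62.0 CPM at 4 h (9.07 ± 0.75). Areg (amphiregulin) had at most 2.69 CPM at 0 h and 136, 17.3 and 16.2 CPM at 4 h (6.53 ± 0.70). No 4 h follicle overlapped the 0 h range in these ligands, but that was fixed by the filter on low counts. With so few counts at 0 h, they passed it only through all 3 follicles at 4 h. Replicate 11 was the highest in each. Hbegf, another ligand of the family, fell by 1.95 ± 0.42, from 8.38 to 24.6 CPM at 0 h to 3.73, 4.51 and 3.82 CPM. Among the ERK feedback genes listed with the ligands, Errfi1, Spry2, Dusp6 and Dusp5 rose by 5.68, 4.61, 3.54 and 2.11. In all, 7 of 14 tested members of that list rose and 1 fell, with a median of 1.56, and on log2(TPM + 1) 13 were called higher. Over all genes tested 14.7% rose and 22.9% fell. Btc, Ereg and Areg, among the 7, were open to a rise only.

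Ereg, Areg and Btc lie close together on chromosome 5, and some of their neighbours were also higher at 4 h. From Cxcl5 (chr5:90759360-90761624) to Parm1 (chr5:91517615-91626894), 10 of the protein-coding genes annotated there had counts in the genes kept. Cxcl1, a chemokine that draws neutrophils, went from a 0 h median of 0.591 CPM to 1706, 883 and 622 CPM (8.27 ± 0.88). Parm1 rose by 3.42 and Mthfd2l by 1.35. Cxcl2 had 2 counts in all at 0 h and 84, 4 and 2 counts in replicates 11, 12 and 13, a ratio at equal depth of 245 (95% interval 65.8 to 2051, counting error only). Cxcl5 had 0 counts at 0 h and 9, 39 and 14 counts, at least 112-fold higher, and Cxcl3 had 0 at 0 h and 5, 8 and 4. Epgn, a further EGF-like ligand, had 0 counts at 0 h and 13, 0 and 5 counts at 4 h. The region was singled out after these values were seen.

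The 250 bases before the RefSeq starts (GRCm38.p6) of 3 of the strongest rises are shown, chosen because they hold short elements of cyclic AMP and AP-1 response. The windows of Ptgs2, Sult1e1 and Ier3, also strong rises, hold none of the letters searched. Capitals mark the short cyclic AMP response element TGACG, the AP-1 element TGANTCA and the TATA box TATAAA on either strand. The Areg window is chr5:91139349-91139598 on the plus strand, that of F3 chr3:121723287-121723536 on the plus strand, and that of Serpinb2 chr1:107511173-107511422 on the plus strand, before 1 of its 2 listed starts.
Areg: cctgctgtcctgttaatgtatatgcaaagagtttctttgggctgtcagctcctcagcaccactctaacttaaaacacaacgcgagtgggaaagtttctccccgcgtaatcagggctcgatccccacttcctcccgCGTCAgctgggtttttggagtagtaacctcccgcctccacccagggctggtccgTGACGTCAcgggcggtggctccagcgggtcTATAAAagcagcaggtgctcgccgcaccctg
F3: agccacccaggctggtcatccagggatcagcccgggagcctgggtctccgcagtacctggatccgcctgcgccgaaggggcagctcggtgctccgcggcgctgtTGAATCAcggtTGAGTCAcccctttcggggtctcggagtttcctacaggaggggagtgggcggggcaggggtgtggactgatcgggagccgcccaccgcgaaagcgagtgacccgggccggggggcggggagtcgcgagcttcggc
Serpinb2: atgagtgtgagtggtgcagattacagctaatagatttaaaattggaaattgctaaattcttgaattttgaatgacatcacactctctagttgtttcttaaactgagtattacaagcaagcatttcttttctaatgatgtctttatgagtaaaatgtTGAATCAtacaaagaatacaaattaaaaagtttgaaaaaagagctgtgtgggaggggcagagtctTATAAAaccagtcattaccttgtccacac
The Areg window holds a full TGACGTCA, upstream of a TATA box. F3 holds a pair of AP-1 elements a few bases apart, and Serpinb2 holds 1 AP-1 element and a TATA box. Among 9191 promoters of genes tested, 4.09% held the AP-1 letters and 6.5% the TATA letters, against 8.93% and 13.7% of the 168 promoters of genes called higher by at least 8-fold. The 9191 promoters belong to 7209 genes and the 168 to 124, so starts of the same gene, as in Serpinb2, are counted separately. The full TGACGTCA was in 2.67% and 2.38%, and TGACG in 27.4% of each set. The letters AAAGGTCA and CACGTG were also searched, and were in 0.595% and 5.95% of the promoters of these strong rises against 0.827% and 8.67% of those tested.

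**Figure D1:**
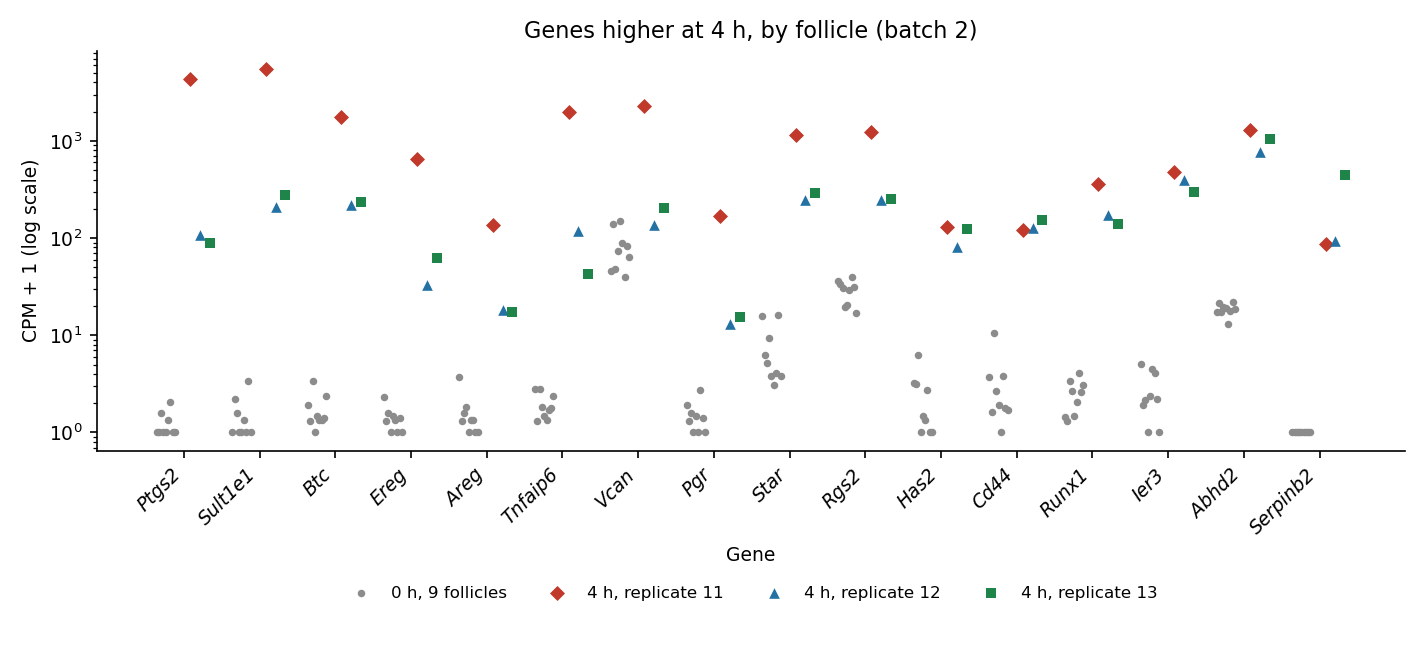
Level of 16 genes that rose, in CPM + 1 on a log axis, in each follicle. Grey points are the 9 follicles at 0 h and coloured symbols the 3 follicles at 4 h; Ptgs2 spans 87.8 to 4316 CPM at 4 h with replicate 11 highest, whereas Has2 spans 80.4 to 130 CPM.

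Of 6 tested cumulus matrix genes 4 rose and 0 fell, with a median of 4.71, against 14.7% and 22.9% of all genes tested. DESeq2 called 2 of the 6 lower. Tnfaip6, Has2 and Cd44 passed the filter on low counts only with follicles of the 4 h group, so a fall was not open to them. Tnfaip6, which links heavy chains to hyaluronan, had 0.307 to 1.79 CPM at 0 h and 2003, 116 and 42.0 CPM at 4 h (9.61 ± 0.82). Has2, the hyaluronan synthase, had at most 5.32 CPM at 0 h and 130, 80.4 and 124 CPM (6.27 ± 0.53), so here the 3 follicles were close. Cd44, a hyaluronan receptor, was as even, with 119, 125 and 154 CPM against at most 9.45 CPM (5.99 ± 0.54). Vcan, the proteoglycan versican, depended on replicate 11. It had 38.8 to 148 CPM at 0 h and 2279, 135 and 202 CPM at 4 h, a rise of 3.43 ± 0.57 that became 1.02 (adjusted p = 0.0882) without replicate 11. Ptx3, which crosslinks the matrix, did not pass the filter on low counts. It had 1 count at 0 h and 166, 15 and 5 counts at 4 h, a ratio of 1011 with a counting interval of 179 to 40154.

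Of 18 tested immediate early transcription factors 15 rose and 2 fell at 4 h, with a median of 2.68. Over all genes tested 14.7% rose and 22.9% fell. Fosl1, Egr3 and Ier3 passed the filter on low counts only through the 4 h group, so a fall was not open to them. Ier3 had at most 4.03 CPM at 0 h and 479, 397 and 298 CPM at 4 h (7.66 ± 0.41). Egr3 rose by 6.58 ± 0.46, Nr4a1 by 3.88 ± 0.58, Junb by 4.19 and Crem, a cyclic AMP responsive repressor and activator, by 3.87. Nr4a1 had 0.591 to 51.9 CPM at 0 h and 520, 186 and 133 CPM at 4 h. Jun and Fosl2, subunits of AP-1, fell by 1.24 and 0.91, and these calls were lost without replicate 13 (Jun, adjusted p = 0.0672) or replicate 11 (Fosl2, adjusted p = 0.0963) and were absent on the TPM scale. Fosl1, an AP-1 subunit as well, had 3 counts at 0 h and 37, 17 and 8 counts at 4 h, a ratio of 112 (interval 36.7 to 560).

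Receptors and messengers of the gonadotropin pathway moved apart. Fshr, the receptor for follicle-stimulating hormone, had 86.3 to 348 CPM at 0 h and 6.71, 0.751 and 9.54 CPM at 4 h (-5.10 ± 0.65). Lhcgr, the receptor through which hCG acts, had 11.8 to 366 CPM at 0 h and 24.6, 5.26 and 1.91 CPM (-3.57 ± 0.90, adjusted p = 0.0051). Replicate 11 lay within the 0 h range of Lhcgr and the other two below it. Prkar2b, a regulatory subunit of protein kinase A, fell by 2.72 ± 0.38. Feedback genes rose: Rgs2, a regulator of G protein signaling, had 16.1 to 38.5 CPM at 0 h and 1240, 246 and 249 CPM at 4 h (4.37 ± 0.38), Sik1 rose by 4.67 ± 0.51 and Pde4b, a cyclic AMP phosphodiesterase, by 3.32 ± 0.53. The list had 6 rises and 5 falls among 14 tested, against 14.7% and 22.9% of all genes tested.

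Of 11 tested prostaglandin genes 4 were higher, Ptgs2 among them, and 3 lower, against 14.7% and 22.9% of all genes tested. Ptger2, 1 of the 3 falls, had 1 count over the 3 follicles at 4 h. Pla2g4a, the phospholipase that frees arachidonic acid, rose by 3.30 ± 0.45. Akr1b7, an aldo-keto reductase, had 2 counts at 0 h and 17, 15 and 81 counts at 4 h, a ratio of 307 (interval 83.1 to 2567). Hpgd, which breaks prostaglandins down, had 33.6 to 189 CPM at 0 h and 0, 9.77 and 0 CPM at 4 h. Ptges, a terminal prostaglandin E synthase, fell by 2.26 ± 0.34, from 108 to 202 CPM to 17.9, 51.8 and 22.9 CPM.

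The progesterone receptor gene itself rose from at most 1.73 CPM to 168, 12.02 and 14.3 CPM (Pgr, 6.76 ± 0.72). Of 12 tested genes of its network, 7 rose, 1 fell and the median was 1.39. Over all genes tested 14.7% rose and 22.9% fell. Pgr, Runx1 and Prkg2 passed the filter on low counts only through the 4 h group, so a fall was not open to them. Runx1, a transcription factor of the periovulatory granulosa cell, had at most 3.12 CPM at 0 h and 356, 174 and 137 CPM (7.25 ± 0.40), and Runx2 rose by 4.56. Adamts1, the protease that cleaves versican, had 55.5 to 85.2 CPM at 0 h and 371, 136 and 168 CPM, a smaller rise of 1.61 ± 0.25. Nrip1, a nuclear receptor corepressor needed for ovulation, fell by 1.69 ± 0.26. Edn2, Il6 and Snap25, further genes of ovulation, did not pass the filter. Edn2 had 0 counts at 0 h and 2, 0 and 3 at 4 h, Il6 had 0 and then 12, 2 and 4, and Snap25 had 1 and then 37, 5 and 1.

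Among 20 tested steroid and luteinization genes 9 rose and 8 fell, against 14.7% and 22.9% of all genes tested. Star, which brings cholesterol into mitochondria, had 2.07 to 15.2 CPM at 0 h and 1150, 244 and 288 CPM at 4 h (6.42 ± 0.53, adjusted p = 2.2e-07). Fdx1, the electron carrier of the side-chain cleavage enzyme, had 68.5 to 243 CPM at 0 h and 3050, 1033 and 1505 CPM (3.72 ± 0.32). Cyp11a1, that enzyme, had 86.3 to 437 CPM at 0 h and 815, 310 and 459 CPM, and its rise of 1.34 ± 0.43 (adjusted p = 0.021) became 0.86 (adjusted p = 0.201) without replicate 11. Scarb1, the receptor for cholesterol of high-density lipoprotein, rose by 2.49. Cyp19a1, the aromatase, had 95.4 to 249 CPM at 0 h and 43.2, 13.5 and 17.2 CPM (-2.85 ± 0.41). Hsd17b1, which makes estradiol, had 473 to 2090 CPM at 0 h and 119, 24.0 and 17.2 CPM (-4.74 ± 0.64). Nr5a1 and Nr5a2, nuclear receptors that drive steroid genes, fell by 1.93 and 3.03, and Hsd3b1 by 2.05.

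Of 25 tested genes of the growing follicle 13 fell and 3 rose, with a median of -1.46. Without replicate 11, 1 rise was left, since the calls of Id2 and Hsd17b12 were lost (adjusted p = 0.233 and 0.179), and without the "_ds" libraries 1 rise was called. Inhbb, the beta B subunit of activin and inhibin, had 658 to 1493 CPM at 0 h and 4.47, 3.01 and 2.86 CPM at 4 h (-8.22 ± 0.44, adjusted p = 2.4e-09). Foxo1, a forkhead factor of growing granulosa cells, had 488 to 702 CPM at 0 h and 16.4, 46.6 and 21.9 CPM (-4.37 ± 0.34). Foxl2, a factor of granulosa identity, had 18.6 to 27.4 CPM at 0 h and 0.746, 2.25 and 2.86 CPM (-3.56 ± 0.40). Esr2, Ccnd2 and Gata4 fell by 2.39, 2.34 and 2.08. Inhba, the beta A subunit, was not called (-0.54 ± 0.43). It had 6386 to 14381 CPM at 0 h and 16441 CPM in replicate 11 but 3230 and 2697 CPM in replicates 12 and 13, above and below the 0 h range, and without replicate 11 the value was -1.90 (adjusted p = 0.00044). Of the genes that hold the oocyte in meiotic arrest, 4 of 7 tested fell and 0 rose, with 1 called higher on log2(TPM + 1). Over all genes tested 22.9% were called lower. Adcy9, 1 of the 4 falls, had 0 counts at 4 h. With the genes of 3 or fewer counts at 4 h left out, 2 falls were called. Nppc, the natriuretic peptide precursor, had 38.4 to 159 CPM at 0 h and 11.2, 5.26 and 3.82 CPM (-3.81 ± 0.53), and its receptor Npr2 fell by 1.46 ± 0.30. Gja1, the gap junction protein connexin 43, fell by 0.65 ± 0.25 (adjusted p = 0.048), a call lost on leaving out any of the 3 follicles at 4 h (adjusted p = 0.0527, 0.119 and 0.174 without replicates 11, 12 and 13).

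Large falls were also found outside the lists given so far. The genes named here are examples picked after their values were seen. They were taken from the largest falls among genes with at least 30 counts over the 3 follicles at 4 h and all 3 below the 0 h range. Some that were passed over, such as Fam13a (-4.71) and Nrep (-4.37), fell more than the last one named. Bnip3, a mitophagy receptor induced by low oxygen, is counted below among the genes of glycolysis and hypoxia. It had 2313 to 5686 CPM at 0 h and 14.9, 22.5 and 42.0 CPM at 4 h (-6.97 ± 0.48, adjusted p = 3.5e-08). Tom1l1, an adaptor of endosomal sorting, fell by 5.73 ± 0.53, Mro by 5.18 ± 0.56 and Akr1c14, an aldo-keto reductase of steroids, by 5.16 ± 0.39. Tom1l1 had 14, 7 and 9 counts in replicates 11, 12 and 13, and Mro 1, 18 and 16. Trib2, a pseudokinase, had 1879 to 3945 CPM at 0 h and fell by 3.98 ± 0.33. In each of these genes all 3 follicles were below the 0 h range, as the choice required.

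**Figure D2:**
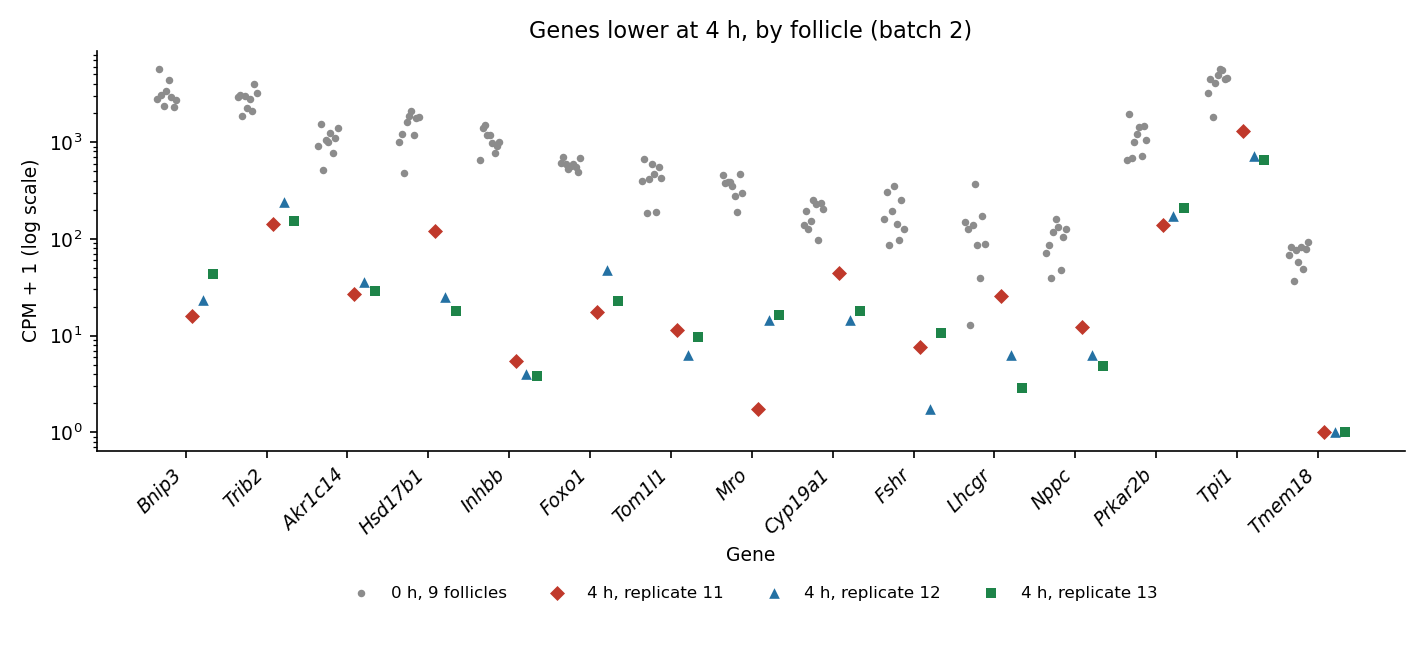
Level of 15 genes that fell, in CPM + 1 on a log axis, in each follicle, with symbols as for the rises. Bnip3 goes from 2313 to 5686 CPM at 0 h to 14.9 to 42.0 CPM at 4 h, and Tmem18 from 36.0 to 91.6 CPM to 0 in all 3 follicles.

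The very largest fitted falls were of another kind. The 15 genes that head the list, among them Tmem18, Rab33a, Rnf144b, Sirt3 and Bbs2, had 0 counts in the 3 follicles at 4 h, except Fam81a with 1. Tmem18 had 1389 counts over the 0 h follicles and was at least 85.2-fold lower, and Rab33a had 1042 and was at least 63.9-fold lower, with 3 counts allowed for the 4 h group. The same genes held 13 to 50 counts over the 10 batch 1 follicles at 4 h and 1 to 32 over the 3 batch 2 follicles at 1 h, so they lie next to the genes that the rule left out for having 0 counts in those libraries. Over all genes tested, 441 had 3 or fewer counts in the 3 follicles at 4 h, and 389 of them were called lower. They made up 371 of the 582 genes called lower by at least 8-fold (5.98% of those tested; 166, or 1.71%, were called higher by as much). Genes with so few counts at 4 h passed the filter only through the 0 h group, so a fall was the only direction open to them. Rises had the same limit where the 0 h group held few counts. Serpinb2, Ptgs2, Ereg, Areg and Sult1e1, with 0, 5, 8, 11 and 12 counts at 0 h, passed only through the 4 h group. So did others, among them Akr1b7, Fosl1, Pgr, Btc and Egr3, with 2, 3, 11, 13 and 15 counts at 0 h. Tnfaip6, Sik1, Runx1 and Ier3, with 17, 18, 28 and 39, were further cases. For all of these genes a rise was the only direction open. Among genes with more than 3 counts at 4 h, 1845 were called lower and 1432 higher. The part that library preparation or the adjustment between batches had in these near-zero counts was not tested. Adcy9, an adenylyl cyclase of the arrest list, and Ebp and Hpgd are among the genes with few counts, with 0, 1 and 13 counts over the 3 follicles.

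Proteases, clotting and inflammatory genes also held large rises. Plau, the urokinase plasminogen activator, had 4.30 to 12.8 CPM at 0 h and 1260, 412 and 418 CPM at 4 h (6.31 ± 0.35), and Timp1, an inhibitor of matrix proteases, rose by 4.63 ± 0.30. Of 18 tested proteases and inhibitors, 8 rose, 2 fell and 8 were not called, while 14.7% of all genes tested rose and 22.9% fell. The falls were Adamts5 and Mmp11, and both calls were lost without replicate 11 (adjusted p = 0.0932 and 0.138) and on log2(TPM + 1), and that of Mmp11 without replicate 13 (adjusted p = 0.101). F3, tissue factor, which starts clotting, had at most 9.40 CPM at 0 h and 1449, 356 and 622 CPM (8.45 ± 0.59), and Procr, the receptor for protein C, rose by 7.18 ± 0.50. Of 8 tested coagulation genes, 5 rose and 1, Tfpi, fell (-2.07, adjusted p = 0.022, and 0.0582 and 0.0767 without replicates 12 and 13). Of 13 tested inflammatory genes 10 rose and 0 fell, and 18 were called higher with all 46 libraries or on log2(TPM + 1), where more members were tested. Tnfrsf12a, a receptor of the tumor necrosis factor family, had 0.591 to 10.0 CPM at 0 h and 811, 637 and 771 CPM (7.11 ± 0.38), so the 3 follicles agreed closely. Nfkb2, Relb and Nfkbiz of the NF-kB pathway rose by 2.60, 2.33 and 2.49. Leukocyte markers summed to 2.24, 16.5 and 78.2 CPM in replicates 11, 12 and 13 and to 12.6 to 179 CPM at 0 h, and their part in these rises was not tested.

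Many listed genes of ribosome production and of amino acid and tRNA metabolism were called higher. Of 24 tested ribosome biogenesis genes 19 rose and 0 fell (median 1.68), against 14.7% and 22.9% of all genes tested. Nop56, a nucleolar protein, had 19.5 to 49.3 CPM at 0 h and 231, 384 and 338 CPM at 4 h (3.14 ± 0.23), and Ncl, Npm1 and Fbl rose by 1.92, 1.62 and 1.99. Of 20 tested genes of amino acid stress and tRNA charging 16 rose and 0 fell (median 1.62). Asns, asparagine synthetase, had 0.345 to 11.8 CPM at 0 h and 163, 156 and 98.3 CPM (4.48 ± 0.42), Psat1 of serine synthesis rose by 4.53 ± 0.28, the asparaginyl-tRNA synthetase gene Nars by 3.40 ± 0.23, and Atf4, the transcription factor of this response, by 2.73. Heat shock genes had 10 rises and 2 falls among 15, led by Hsph1 (2.70 ± 0.26). Of 22 tested cytoskeletal genes 15 rose and 0 fell (median 1.54), with Tubb6, a tubulin, at 3.69 ± 0.40 and Tpm4, a tropomyosin, at 3.52 ± 0.31. Tpm4 had 75.1 to 272 CPM at 0 h and 3697, 1279 and 1303 CPM at 4 h. The structural matrix list of collagens, laminins and others had 0 rises, 1 fall and 23 members not called, while 1 was called higher by DESeq2, 2 on thinned counts and 3 on log2(TPM + 1).

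Glycolysis and cholesterol synthesis moved down in most members called. Of 22 tested genes of glycolysis and hypoxia 13 fell and 3 rose (median -1.01), against 22.9% and 14.7% of all genes tested. Without the 0 h libraries whose descriptions end in "_ds", 6 fell. Tpi1, triosephosphate isomerase, had 1833 to 5698 CPM at 0 h and 1297, 713 and 651 CPM at 4 h (-2.29 ± 0.36), and Eno1 and Aldoa fell by 2.00 and 1.40. The rises were Hk2, a hexokinase (2.79 ± 0.47), and the glucose transporters Slc2a1 (2.43 ± 0.37) and Slc2a3 (1.37 ± 0.42, and 1.02 with adjusted p = 0.147 without replicate 11). Of 24 tested cholesterol synthesis genes 13 fell and 3 rose (median -1.13). Acat2 had 90.2 to 176 CPM at 0 h and 25.3, 9.77 and 18.1 CPM, below that range in all 3 follicles, and Fdft1 and Mvk fell by 2.78 and 2.16. Among the 3 rises were Cyp51, a demethylase of lanosterol (0.94), and Srebf2, the regulator of the pathway (0.77), and none of the 3 was called without replicate 11.

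Some listed genes of cell division were called lower. Of 20 tested DNA replication genes 9 fell and 0 rose, with 1 called higher by DESeq2 or with RLE size factors, and of 25 tested mitosis genes 8 fell and 0 rose. Of the mitosis members 17 were not called, and over all genes tested 22.9% were called lower. Mcm3, of the replication helicase, had 14.2 to 62.3 CPM at 0 h and 8.20, 0.751 and 0.954 CPM at 4 h (-3.55 ± 0.66). Mki67 had 11.6 to 39.7 CPM at 0 h and 9.69, 5.26 and 0.954 CPM (-2.06 ± 0.50). Without replicate 13 the replication falls numbered 4, and without replicate 12 or 13 the mitosis falls numbered 3. Without the "_ds" libraries both lists had 3 falls, and without 0 h replicates 1 and 3 there were 15 replication falls.

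**Figure D3:**
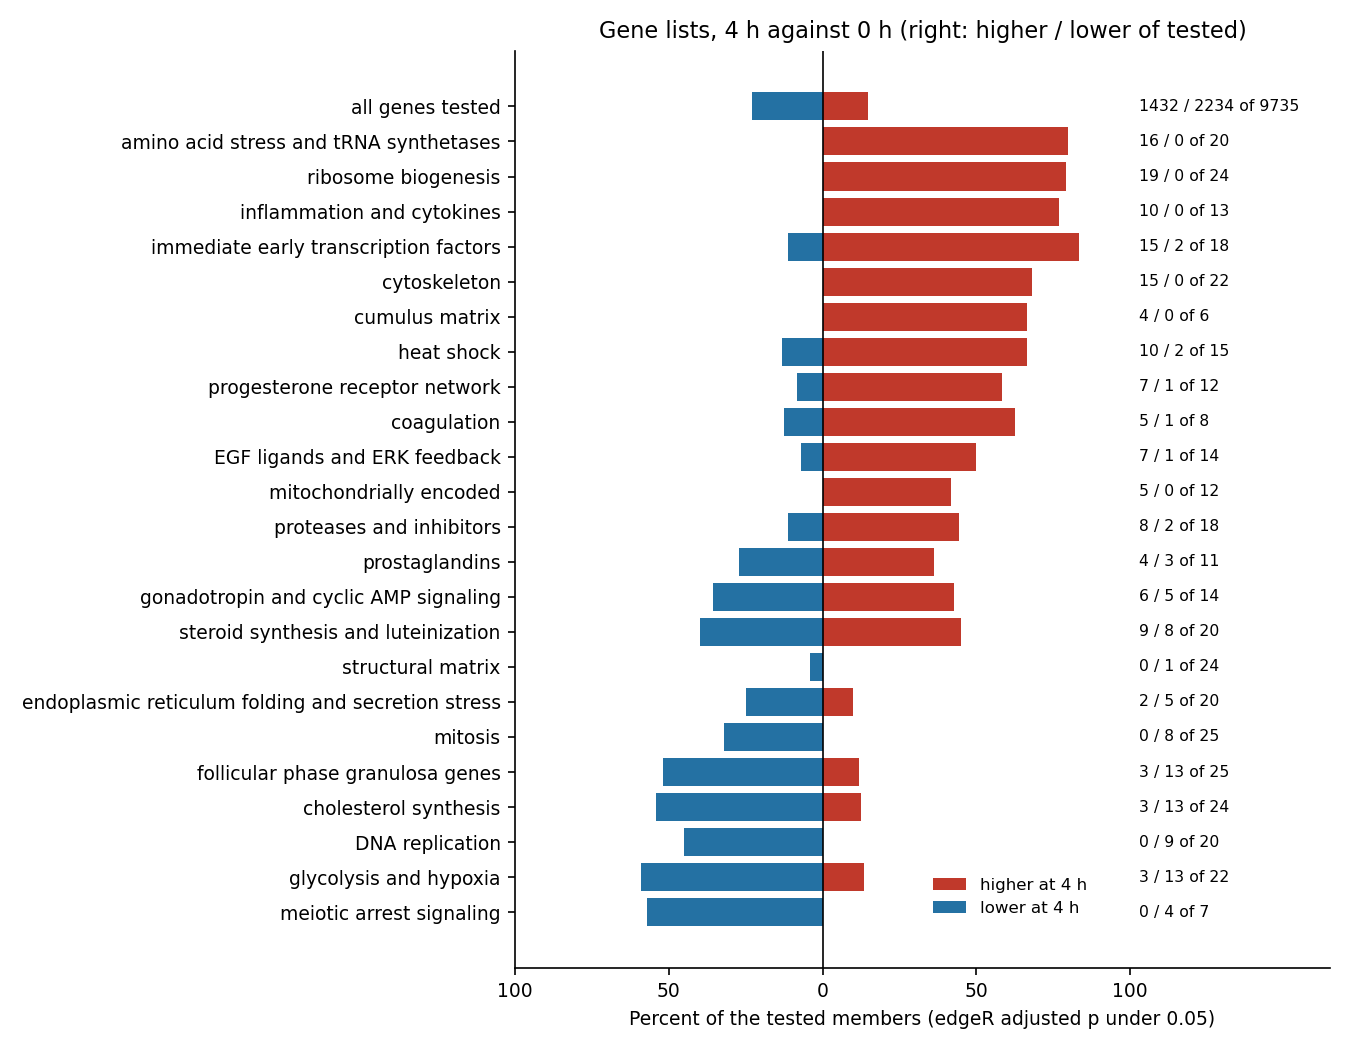
Percent of the tested members of each gene list that were called higher (right) or lower (left) at 4 h, with the counts at the right edge. All genes tested stand at the top, with 1432 higher and 2234 lower of 9735; ribosome biogenesis had 19 higher and 0 lower of 24, and meiotic arrest 0 higher and 4 lower of 7.

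The 3 follicles at 4 h differed among themselves. Over the 3104 genes that averaged at least 5 log2 CPM in them, replicates 12 and 13 were at least 2-fold apart in 179 genes (5.77%), replicates 11 and 12 in 472 (15.2%) and replicates 11 and 13 in 564 (18.2%). Replicate 11 was the highest of the 3 in 776 of the 1432 genes called higher, replicate 12 in 316 and replicate 13 in 340. In the 2234 genes called lower, the lowest was replicate 11 in 1095, replicate 12 in 461 and replicate 13 in 678. Ties went to the lower-numbered follicle, and 118 of these genes had 0 counts in all 3. The same count over all genes tested was not made. The TMM factors of library size were 0.778, 0.981 and 0.980 in replicates 11, 12 and 13, and their part was not tested. Among 2801 genes in which replicates 12 and 13 were within 2-fold, 257 were at least 2-fold higher in replicate 11 and 129 at least 2-fold lower. With 1 follicle against 2 there is no test of this difference.

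The 10 genes highest in replicate 11 included Ptgs2, Sult1e1, Ereg, Vcan and Pgr, given above. The others were Nrn1, Zpld1, Pcdh9, Comp and Slc23a2. Nrn1 (neuritin) had 574 CPM in replicate 11 and 18.0 and 22.9 CPM in replicates 12 and 13, and the last 2 lay within the 0 h range of 6.76 to 44.9 CPM. Its rise of 3.42 became 0.05 without replicate 11. Zpld1, a zona pellucida-like domain protein, had 555, 27.1 and 24.8 CPM, and its rise of 2.37 became -0.64 without replicate 11. Comp, a matrix protein of cartilage, stayed within its 0 h range of 54.4 to 368 CPM in replicate 11 (247 CPM) and was at 9.02 and 17.2 CPM in the others.

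Among the 10 genes lowest in replicate 11 were Mgp, Gpx3, Col1a1, Acta2, Me2, Ghr, Ahnak, Fhdc1 and Col1a2. Acta2, smooth muscle actin, had 137 CPM in replicate 11, within its 0 h range of 27.7 to 501 CPM, and 996 and 1552 CPM in replicates 12 and 13. Its call, a rise of 2.31 ± 0.68, was lost without replicate 13 (1.65, adjusted p = 0.128). Col1a1, a collagen of the theca and stroma, had 10.4 CPM in replicate 11, below the 0 h range of 23.4 to 417 CPM, and 81.2 and 156 CPM in the others, within it.

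Markers of other cell types moved with these differences. The 14 theca and stroma markers summed to 136 CPM in replicate 11 and to 872 and 1690 CPM in replicates 12 and 13, against 789 to 3607 CPM at 0 h. The 7 smooth muscle markers summed to 182 CPM in replicate 11 and to 1195 and 1705 CPM in the others, against 280 to 859 CPM at 0 h, while Myh11 was at 0 in all 3. Most of this sum in replicates 12 and 13 was Acta2, and Myocd, a coactivator of smooth muscle genes, was below its 0 h range of 166 to 353 CPM in every 4 h follicle (38.8, 138 and 84.9 CPM, -1.48 ± 0.35). The granulosa markers summed to 44725 CPM in replicate 11 and to 14624 and 14747 CPM in replicates 12 and 13, nearly all of it Inha (44426, 14461 and 14442 CPM). The other members of that list went both ways. Cyp19a1 and Fst were also highest in replicate 11, with Fst at 215, 96.2 and 115 CPM, and Fshr lay between replicates 12 and 13 there. Foxl2, Kitl and Nr5a2 were instead lowest in replicate 11, with Kitl at 18.6, 33.8 and 144 CPM. Foxl2 had only 7 counts over the 3 follicles, and Nr5a2 was near level at 14.2, 17.3 and 16.2 CPM. Between groups, 4 of 11 tested theca and stroma markers fell, 0 rose and 7 were not called, while 22.9% of all genes tested fell. Col3a1 (0.13) and Pdgfra (-0.03) were among those not called. The theca gene Aldh1a1 fell by 3.37 ± 0.84. Cyp17a1 and Insl3 fell by 3.23 (adjusted p = 0.025) and 2.29 (adjusted p = 0.022). The call of Cyp17a1 was lost without replicate 11, 12 or 13 (adjusted p = 0.102, 0.0626 and 0.0624), and that of Insl3 without replicate 11 or 12 (adjusted p = 0.105 and 0.0977). The Insl3 log2 fold change was -2.19 without the "_ds" libraries at 0 h (adjusted p = 0.0523), and its call was lost there too. The part of these markers in the response of replicate 11 was not tested.

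**Figure D4:**
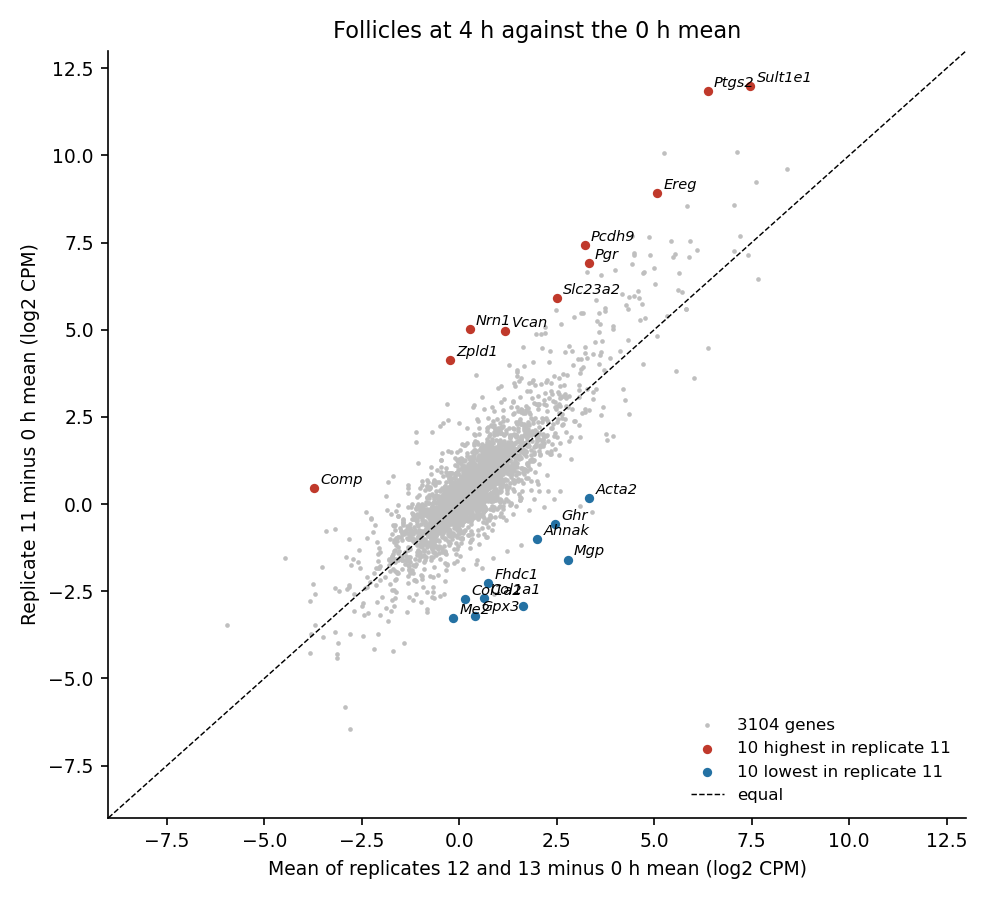
Difference from the 0 h mean (log2 CPM) in replicate 11 against the mean of replicates 12 and 13, for 3104 genes, with the line of equal values. The 10 genes highest in replicate 11 (red) and the 10 lowest (blue) are coloured, most with their names; Ptgs2 and Sult1e1 are highest.

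**Figure D5:**
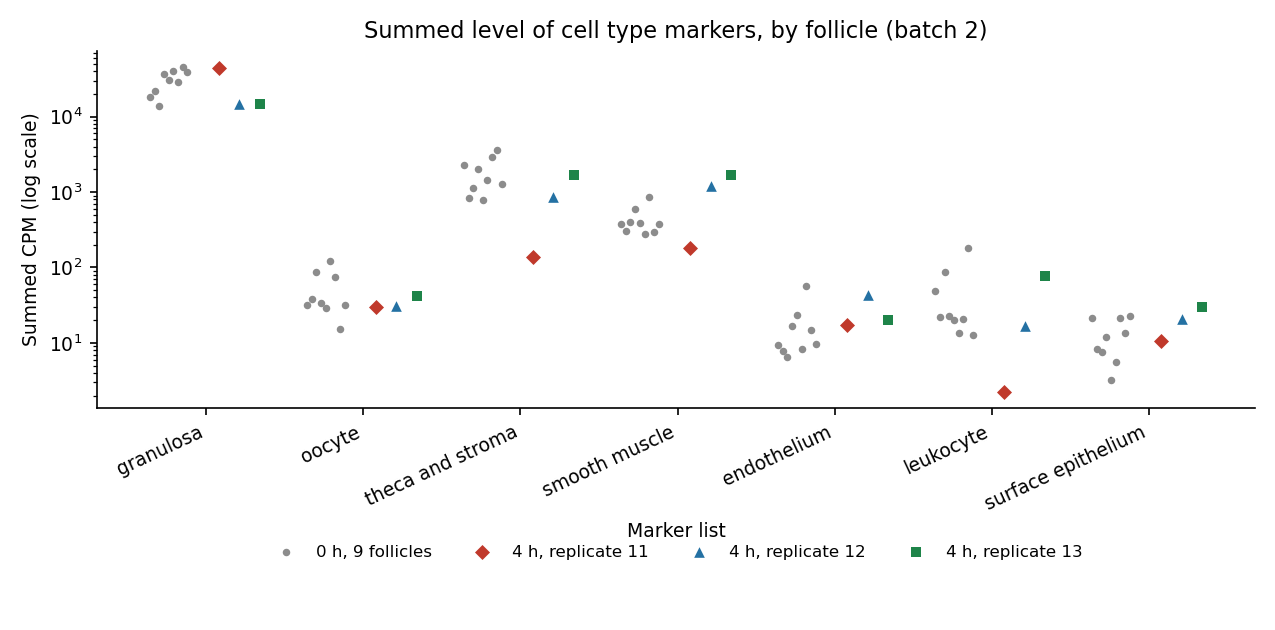
Summed CPM of each cell type marker list in every follicle, on a log axis, with symbols as for the rises. Replicate 11 lies below the other 4 h follicles for theca and stroma (136 CPM) and smooth muscle (182 CPM) and above them for granulosa (44725 CPM, of which Inha is 44426 CPM).

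The 10 batch 1 follicles at 4 h, a separate library set adjusted by the authors to this one, give a scale for the 3. With factors set over all 46 libraries, Ptgs2 had 1182 to 5686 CPM in batch 1 and 3932, 97.6 and 84.3 CPM in replicates 11, 12 and 13. Replicates 12 and 13 were below all 10 batch 1 follicles for Ptgs2, Btc, Areg, Star, Tnfaip6 and Rgs2, and replicate 11 was inside the range for the first 5 of these. Over the 166 genes called higher by at least 8-fold, replicates 12 and 13 lay below the batch 1 range in 61 (36.7%) and 50 (30.1%) and replicate 11 in 23 (13.9%). The shares over all genes tested were 10.8%, 12.4% and 13.2%. Above that range lay 2, 7 and 26 of the 166 genes in replicates 12, 13 and 11. For Acta2 the order was the reverse, with replicate 11 at 125 CPM below the range of 413 to 1472 CPM.

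Mitochondrially encoded genes took 12.03% ± 1.65 of the counts at 4 h (SD, n = 3) and 10.3% ± 1.25 at 0 h (SD, n = 9), a difference that did not pass a two-sided exact permutation test over the 220 splits (p = 0.118). Of 12 such genes 5 were called higher, against 14.7% of all genes tested. On leaving out any of the 3 follicles at 4 h 1 was, and without the "_ds" libraries 0 were.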

How the data were processed

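Single-follicle polyadenylated RNA was made into unstranded Smart-Seq2 and Nextera XT libraries, per the labels' protocols, so overlapping genes of opposite strands share reads. HISAT2, GRCm38, Partek and DESeq2 are named, per the submitters' processing notes. The authors' deposited count table holds whole-number counts adjusted between batches with ComBat-seq, per the file's own name, with settings not given in the sources used here. The authors' deposited TPM table was used in an alternative. Columns of no described sample, 10 in either file, stayed unused.

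Counts of the 12 libraries were fitted in R 4.3.3 with the quasi-likelihood F test of edgeR 4.0.16 (TMM normalization, low counts removed by filterByExpr on time, Benjamini-Hochberg adjustment over 9735 genes, called at an adjusted p under 0.05). Library sizes summed the 15724 genes kept. The biological coefficient of variation was 38.1%. The SE was the log2 change divided by the square root of F, CPM used the TMM-scaled library sizes, and 2 was the prior count of log2 CPM. Folds against a group with 0 counts were bounded by allowing it 3 counts, and for 1 to 3 counts the depth-scaled ratio has an exact binomial interval of 95%. Intervals and bounds cover counting error only. The script was tested on simulated data.

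Named genes were the 15 largest rises and falls that were called and averaged at least 3 log2 CPM, with a name that is not provisional and no overlap between groups, up to 3 called rises and 3 falls of each of 30 lists, 25 genes of ovulation always, and the 10 highest and 10 lowest in replicate 11 against replicates 12 and 13 (averaging at least 5 log2 CPM). Other list members are named as examples, and some genes that the rule names are not reported here. The comparison, the members and the lists were chosen with earlier results of these data known. Gene positions are from GENCODE M21 (GRCm38). The mitochondrial share was compared with an exact permutation test (SciPy 1.17.1). The alternatives tried were no filter on low counts, RLE factors, the 9423 genes kept in, DESeq2 1.42.0, all 15 batch 2 libraries, all 46 libraries with a batch term, no "_ds" libraries (5 of 9 at 0 h, meaning not given), no 0 h replicates 1 and 3, each 4 h follicle left out, counts thinned to 1069107, and limma 3.58.1 on log2(TPM + 1) and log2(TPM + 0.1) for genes averaging at least 1 TPM. Leaving out the genes with 3 or fewer counts at 4 h was added after the data were seen.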

Additional observations from a re-analysis of the deposited data

Results flagged for a closer look

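Of 99 groups of values examined, 11 held a follicle whose gap to its nearest neighbour, as a share of the group's range, passed Dixon's 95% limit, where gene levels were compared on a log2 scale (log2 CPM in batch 2, log2(CPM + 1) in batch 1) and where chance gives about 1 in 20. At 0 h, replicate 1 was highest for Areg (share 0.530, 2.69 CPM against 0.845 CPM in the next follicle) and Cxcl1 (0.609, 24.2 against 2.54 CPM), and replicate 2 was highest for Gja1 (0.496). Replicate 3 was lowest for Hsd17b1 (0.512, 473 against 1012 CPM), Tpm4 (0.619), Cyp51 (0.521), Slc23a2 (0.602) and mt-Nd1 (0.548). It is the follicle that stood apart on the principal component after the first. Replicate 6 was lowest for Abhd2 (0.557) and replicate 4 for Hk2 (0.596, 0 against 4.197 CPM). In batch 1 at 4 h, replicate 10 was lowest for Inhba (0.533, 946 against 3638 CPM).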

How the results depend on the processing

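The 3666 calls became 2165 (836 higher, 1329 lower) without the "_ds" libraries, which leaves 4 follicles at 0 h. Rises numbered 2247 with all 46 libraries and a batch term, 2835 with limma on log2(TPM + 1) and 2620 on log2(TPM + 0.1), where 63.1% and 60.2% of the calls were rises; the cause was not tested. Leaving out 1 follicle at 4 h gave 2818 to 3007 calls, 1017 to 1200 higher and 1784 to 1874 lower. The other alternatives kept these counts within 1.5 times of the values reported, and the mitochondrial difference of 1.69 percentage points was 1.46 (exact permutation p = 0.618) with all genes in the total. Signs turned for Zpld1 (-0.64 to 2.88 with 1 follicle at 4 h left out, lowest without replicate 11), Comp (0.21 with 46 libraries), Col1a1 (0.52 without "_ds" libraries, 0.0158 on log2(TPM + 1), and -1.18 to 0.17 with 1 follicle left out, positive without replicate 11) and Fhdc1 (-0.29 with 46 libraries, and -0.43 to 0.68 with 1 follicle left out, negative without replicate 12). Of the 3666 genes called, 2586, 2773 and 2786 were also called without replicates 11, 12 and 13. No paired analysis was possible because the follicles at 0 h are numbered 1 to 9 and those at 4 h 11 to 13, with no shared number. With 3 follicles at 4 h and 1069107 to 1724772 counts in each, genes of few counts are measured least precisely.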

Other observations

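Other genes among the largest rises belong to none of the lists. Hmga1, a chromatin protein, had at most 5.53 CPM at 0 h and 954, 263 and 411 CPM in replicates 11, 12 and 13 (log2 rise 7.82 ± 0.58). Nupr1, a stress-induced nuclear protein, had at most 5.32 CPM at 0 h and was highest in replicate 12, with 506, 799 and 465.6 CPM (7.44 ± 0.39). Abhd2, a serine hydrolase, had the narrowest error of the 15 largest rises, with 12.1 to 21.2 CPM at 0 h and 1287, 772 and 1049 CPM at 4 h (5.88 ± 0.20). Itga2, an integrin of collagen binding, had 3.13 to 14.1 CPM at 0 h and 1171, 192 and 161 CPM (6.01 ± 0.48), and Far1, a reductase of fatty acyl groups, had 15.8 to 36.0 CPM and 2395, 621 and 643 CPM (5.69 ± 0.35). In each of these genes all 3 follicles at 4 h lay above all 9 at 0 h, as the rule for naming them required.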
